A study of Homo sapiens with 84 samples.

Results

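AP-1 (activator protein 1) is a dimeric transcription factor built from proteins of the Fos, Jun, and ATF families. The 8 genes described here, FOS, FOSB, FOSL1, FOSL2, JUN, JUNB, JUND, and ATF3, were selected by name through their Ensembl identifiers. All 8 were found among the 58395 genes of the count files. They were measured by QuantSeq 3′ mRNA sequencing, which yields about 1 read per transcript whatever its length, in 2 squamous carcinoma cell lines, Kyse30 from the esophagus and FaDu from the hypopharynx.

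Cells of every group were plated in medium with FCS and then kept serum-free for 24 h before treatment, so that the controls were starved as well. They were left untreated (0, 6, or 72 h) or received for 6 or 72 h the antibody fragment Fc, the ectodomain of EpCAM fused to Fc (EpEX), EGF at 1.8 nM (EGFlow), EGF at 9 nM (EGFhigh), or EGFhigh together with EpEX. Untreated cells served as control for EGF, and Fc-treated cells for EpEX and the combination. Each of the 13 Kyse30 groups held 3 or 4 libraries (43 in all), with 1944948 to 11759799 counts on genes per library (median 6304338). The FaDu libraries of replicates 3 and 4 were 20, with 6217938 to 12442349 counts (median 9259762) and 1 or 2 libraries per group. Each tumour site is represented by 1 cell line. The labels do not say whether replicates were separate cultures. The study speaks of independent experiments for micrographs of cells treated in this way and gives only a number of samples for the sequencing. The p-values therefore measure the spread between these libraries, which may be technical.

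The other 21 FaDu libraries, replicates 1 and 2, stood apart. The log2 CPM of these libraries correlated with that of replicates 3 and 4 of the same condition at a median r of 0.831. By contrast, replicates 3 and 4 correlated among themselves at a median of 0.964 over all conditions. CPM relates the reads of a gene to those on the genes of its library that passed a count filter, after scaling between libraries. Replicates 1 and 2 correlated among themselves at a median of 0.838 (0.763 to 0.975), so that they did not form a set of like libraries. FaDu values below are from replicates 3 and 4, and the results are also given with all 41 libraries.

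Both lines expressed epithelial markers. Median levels in Kyse30 were 803 CPM for SFN, 212 CPM for EPCAM, 189 CPM for CDH1, and 19.3 CPM for TP63, with KRT5 and KRT14 low at 2.10 and 0.688 CPM. FaDu had medians of 914 CPM for KRT17, 541 CPM for SFN, 380.0 CPM for EPCAM, 205 CPM for KRT5, and 31.4 CPM for TP63. Leukocyte and endothelial markers had medians under 1 CPM, whereas the fibroblast collagen gene COL1A1 was detected in every library (median 14.1 CPM in Kyse30 and 8.71 CPM in FaDu) and COL1A2 had medians of 5.09 and 0.372 CPM. The fibroblast markers DCN and LUM had medians of 0. The 3 leukocyte markers summed to a median of 0.117 CPM in Kyse30 and 0 CPM in FaDu, with LYZ at up to 2.72 CPM in Kyse30. Of the endothelial markers PECAM1 was at 0 in all 43 Kyse30 libraries, VWF was at 0 in 31 of them (up to 6.78 CPM) and in 4 of the 20 FaDu libraries (up to 2.07 CPM), and the 6 fibroblast markers summed to medians of 20.2 and 11.1 CPM, mostly COL1A1.

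Fos proteins (FOS, FOSB, FOSL1, FOSL2) cannot pair with one another and bind DNA only with a Jun partner, whereas Jun proteins (JUN, JUNB, JUND) also pair with themselves, and ATF3 pairs with Jun proteins. FOS, FOSB, and JUN are classical immediate-early genes that growth factors induce within minutes through MAPK signalling and serum response factor and that are shut off again soon after. FOSL1 is induced later and for longer by sustained ERK activity, and in squamous epithelium AP-1 controls genes of keratinocyte differentiation, matrix degradation, and migration.

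Jun proteins bind the motif TGANTCA, and dimers of ATF3 and Jun the 8-base motif TGANNTCA, of which TGACGTCA is the CRE form. Members of the family are known to bind near the start of some AP-1 genes, and the 250 bases before the RefSeq start (GRCh38.p14) of each member were searched on both strands. The windows of 3 genes, JUN, ATF3, and JUND, held a match, given here as 30 bases 5′ to 3′ on the gene's strand with the motif in capitals.
JUN, chr1:58784096-58784125, minus strand: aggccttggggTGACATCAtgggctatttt
ATF3, chr1:212565273-212565302, plus strand: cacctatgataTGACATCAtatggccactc
JUND, chr19:18281804-18281833, minus strand: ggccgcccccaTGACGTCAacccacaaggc
JUND, chr19:18281658-18281687, minus strand: aacgggggcggTGAGCTCAtcgcgccgagc
The first base of the match lay at -67 (JUN), -123 (ATF3, the first of 2 RefSeq entries), and -200 and -54 (JUND) relative to the RefSeq start. Except for JUND the RefSeq starts differ from those of GENCODE, and the windows of JUN, FOSL2, and the second ATF3 entry lie wholly inside the GENCODE gene. Among all 35116 RefSeq promoters, 10.1% held TGANNTCA, 1.65% the TGACGTCA contained in it, 6.57% TGANTCA, and 1.16% a CArG box, the motif of serum response factor. FOS, FOSB, FOSL2, JUNB, and the second ATF3 entry held none of the 4 motifs in this window, and FOSL1 had no entry. Bases outside these windows were not searched, so a window without a match does not mean that the gene lacks the motif. A match describes letters and shows no binding.

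The genes lie at 14:75278774-75282230 (FOS), 19:45467995-45475179 (FOSB), 11:65892049-65900573 (FOSL1), 2:28392448-28417312 (FOSL2), 1:58780788-58784327 (JUN), 19:12791496-12793315 (JUNB), 19:18279760-18281622 (JUND), and 1:212565334-212620777 (ATF3) of GRCh38 (GENCODE 29). FOSB overlaps ERCC1 and JUNB overlaps HOOK2, both on the opposite strand, and FOSL2 overlaps the antisense gene FLJ31356 and the intronic AC104695.3. The strand setting of the counting is not given in the sources used here, so reads of these neighbours may not have been told apart.

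Between 6 and 72 h 5 of the 8 genes, FOS, FOSB, JUNB, JUND, and ATF3, rose in untreated Kyse30 cells, where 1.55% of all 15350 genes tested were called. A gene was called when its adjusted p was at most 0.05 and its absolute log2FC over 0.5. With any 1 library left out, 2 to 3 of the 8 were called, among them always FOSB and ATF3. Summed over the 8 genes, the level was 859 ± 163 CPM (SD, n = 3) at 6 h and 2734 ± 193 CPM (n = 3) at 72 h. In these bulk samples, more cells of one kind and more RNA per cell cannot be told apart.

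FOS was at 141, 43.3, and 85.9 CPM in the 3 untreated libraries at 6 h and at 575, 298, and 596 CPM at 72 h. FOSB went from 79.6, 55.4, and 57.1 CPM to 599.6, 681, and 413 CPM. ATF3, a stress-inducible member that often represses transcription as a homodimer, went from 112, 82.4, and 90.8 CPM to 540.4, 519, and 391 CPM. Every 72 h library of these genes was above every 6 h library, and in 20.7% of all genes tested the groups did not overlap in either direction. In edgeR's quasi-likelihood test with Benjamini-Hochberg adjustment over all genes, which was used throughout, the log2FC was 2.45 ± 0.64 (SE) for FOS (adjusted p = 0.0342), 3.14 ± 0.44 for FOSB (adjusted p = 2.81e-05), and 2.35 ± 0.45 for ATF3 (adjusted p = 0.00215). These correspond to 5.46-, 8.83-, and 5.08-fold.

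JUNB, a Jun protein that can restrain JUN activity, rose from 134, 112, and 155 CPM to 469, 305, and 363 CPM (log2FC 1.5 ± 0.41, adjusted p = 0.0424). JUND, the Jun member that is expressed most steadily, rose from 275, 226, and 338 CPM to 504, 527, and 501 CPM (0.87 ± 0.24, adjusted p = 0.0498). JUN had 122, 94.0, and 135 CPM at 6 h and 183, 193, and 309.8 CPM at 72 h without passing the test (0.96 ± 0.50, adjusted p = 0.399), but was called when only the groups compared were fitted (0.0280) or without the filter on low counts (0.00691). The groups did not overlap for these 3 Jun genes either. FOSL1 (-0.42 ± 0.57, adjusted p = 0.824) and FOSL2 (0.40 ± 0.36, adjusted p = 0.703) overlapped.

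The 8 members had a median log2FC of 1.23, against 0.02 over all genes. FOSB and ATF3 kept their call whichever of the 6 libraries was left out, whereas FOS lost it without untreated 72 h replicates 1 or 3 or 6 h replicates 3 or 4 (adjusted p 0.105 to 0.240), and JUNB (0.0661 to 0.235) and JUND (0.053 to 0.292) lost it without any of them. Between 0 and 6 h, no member and 0% of all genes were called by edgeR or DESeq2, while 355 genes and no member had an unadjusted p under 0.05.

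**Figure D1:**
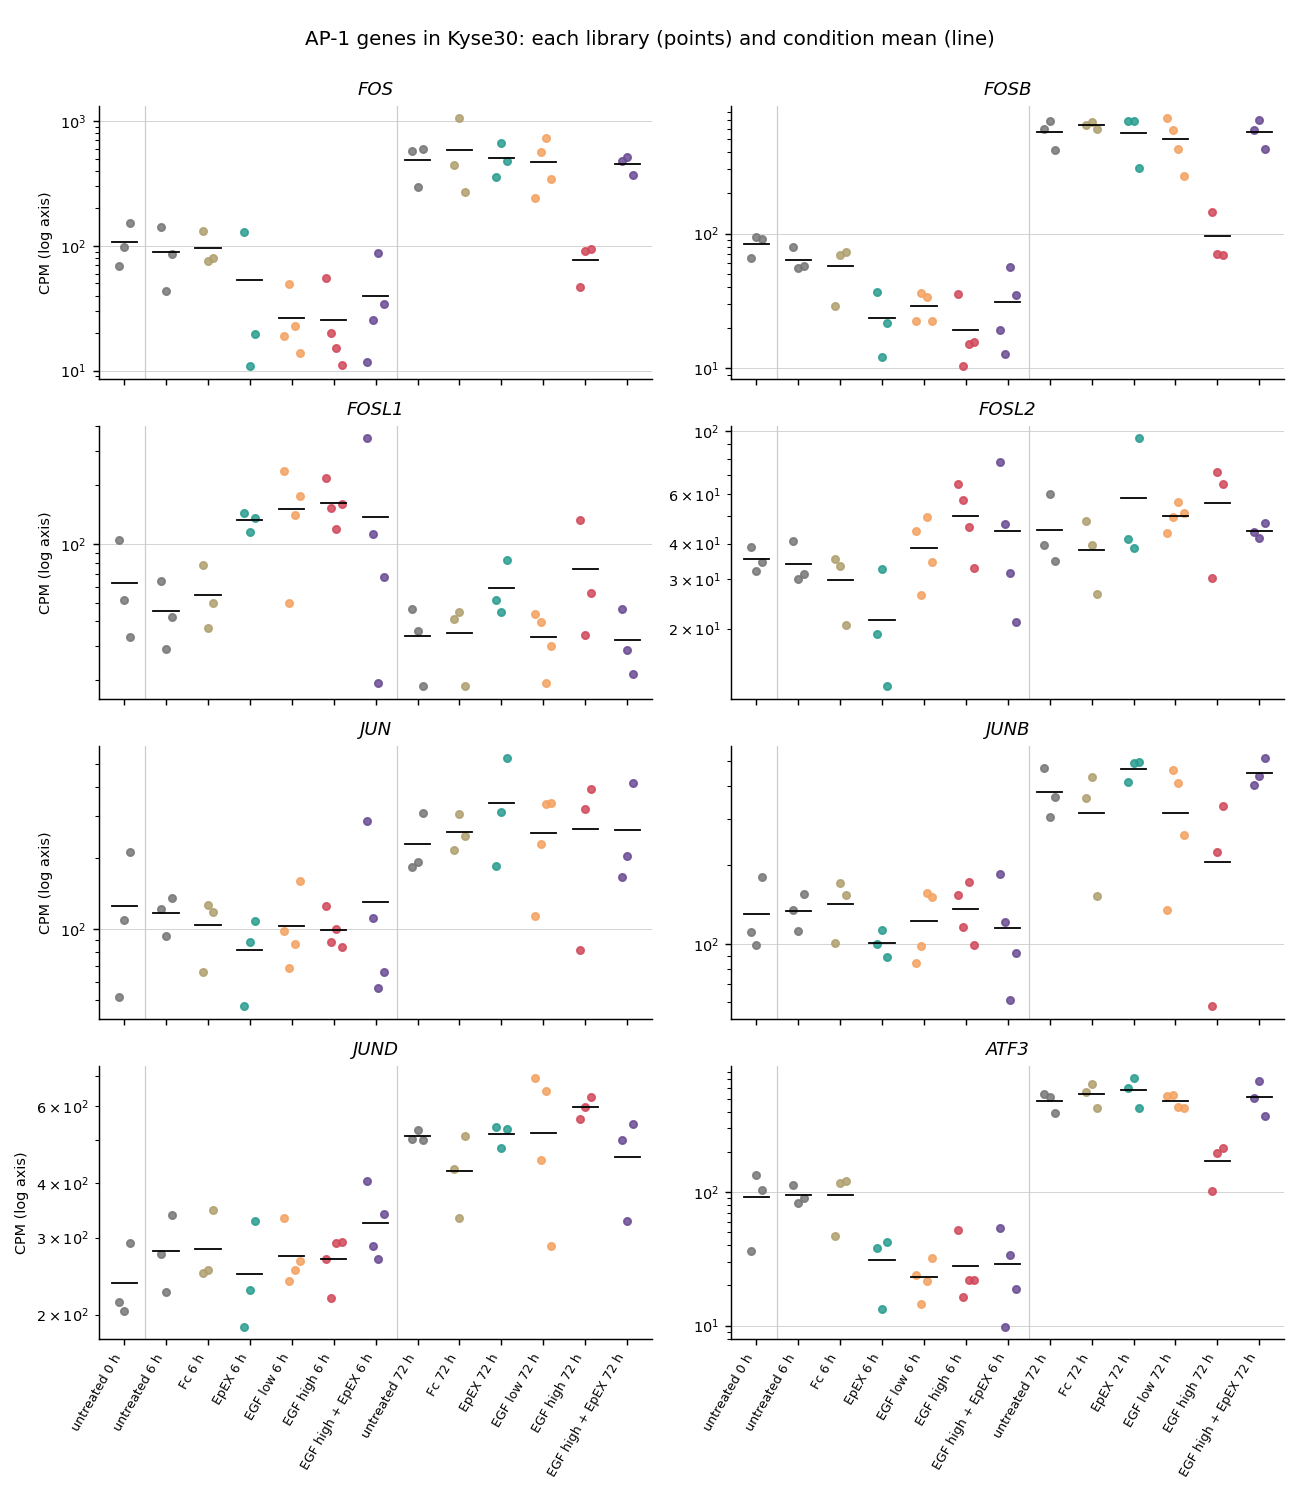
Level in CPM (log axis) of each of the 8 AP-1 genes in the 43 Kyse30 libraries, by treatment and time, with a point per library and a line at each group mean. FOS, FOSB, and ATF3 were highest in the 72 h groups except EGFhigh, in which they averaged 77.5, 95.2, and 171 CPM.

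The comparisons at 6 h addressed the early response to EGF, although FOS and FOSB peak within the first hour after stimulation, a time that was not sampled. In Kyse30 at this time both EGF doses lay below the control in ATF3 and FOSB. ATF3 was called at both doses and FOSB at the high dose, while the calls of FOSB at the low dose, of FOS, and of FOSL1, which was higher, depended on the fit.

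ATF3 was at 23.9, 14.6, 21.6, and 32.2 CPM with EGFlow and at 52.0, 16.3, 22.0, and 21.9 CPM with EGFhigh, all below the untreated 112, 82.4, and 90.8 CPM. It fell 4.13-fold with EGFlow (log2FC -2.05 ± 0.41, adjusted p = 0.0055) and 3.47-fold with EGFhigh (-1.79 ± 0.41, adjusted p = 0.0109). FOSB was at 35.7, 10.4, 15.2, and 15.7 CPM with EGFhigh, below all untreated libraries, and fell 3.43-fold (-1.78 ± 0.40, adjusted p = 0.0098). With EGFlow FOSB was at 22.5, 36.1, 33.95, and 22.6 CPM, also without overlap, but did not pass (-1.15 ± 0.39, adjusted p = 0.133). Of all genes, 13.7% with EGFlow and 15.3% with EGFhigh did not overlap the control.

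FOS was at 19.0, 49.4, 22.9, and 13.9 CPM with EGFlow and at 55.4, 20.02, 15.2, and 11.1 CPM with EGFhigh, against 141, 43.3, and 85.9 CPM untreated. In each treated group 1 library lay above the lowest control, and FOS was not called with the low (-1.76 ± 0.58, adjusted p = 0.123) or the high dose (-1.87 ± 0.59, adjusted p = 0.0806).

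FOSL1, which encodes Fra-1, was at 217, 152, 118, and 159.8 CPM with EGFhigh, above all 3 untreated libraries at 64.8, 28.9, and 41.9 CPM. The log2FC of 1.84 ± 0.55 stayed short of the threshold in edgeR (adjusted p = 0.0601), whereas FOSL1 was called by DESeq2 (adjusted p = 0.0349), which thus called 3 members with EGFhigh and 2.43% of all genes. With EGFlow it was at 235, 50.02, 141, and 175 CPM, of which 1 library overlapped the control (1.74 ± 0.55, adjusted p = 0.103). FOSL2, JUN, JUNB, and JUND overlapped the control at both doses, with log2FC from -0.24 to 0.56. In other edgeR fits, FOSL1 was called with EGFhigh and EGFlow when untreated and Fc libraries were pooled as control (adjusted p = 0.00838 and 0.0191, with 7.2% and 5.06% of all genes called) or only the compared groups were fitted (0.00111 and 0.0268, with 4.68% and 2.83%). FOS was called in these fits as well (0.0157 to 0.0271), as was FOSB with EGFlow (0.0479 and 0.0200).

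Thus 1 member was called with EGFlow, where 1.5% of all genes were, and 2 with EGFhigh, where 2.55% were. These comparisons share their untreated libraries, and without untreated replicate 4 the shares of all genes were 0.124% and 0.701%. The EGFlow call of ATF3 was kept whichever library was left out, but ATF3 and FOSB were lost in EGFhigh without untreated replicate 1 (adjusted p 0.0544 and 0.0603) or EGFhigh replicate 2 (0.0627 and 0.0616). FOS was called without EGFhigh replicate 1 (0.0263), and FOSL1 without EGFlow replicate 2 (0.0426). No member passed between the doses, and edgeR and DESeq2 called 0% of all genes between them (435 genes and no member at an unadjusted p under 0.05). The members' SE in this comparison ran from 0.21 to 0.56, so differences of that size were not resolved.

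EpEX alone called no member at 6 h in Kyse30. FOSL1 was at 144, 115, and 136 CPM against 77.7, 37.0, and 49.5 CPM with Fc, and ATF3 at 38.4, 13.3, and 42.1 CPM against 46.7, 116, and 121 CPM, both without overlap, as were 13.2% of all genes. The log2FC was 1.26 ± 0.57 for FOSL1 (adjusted p = 0.476) and -1.62 ± 0.45 for ATF3 (adjusted p = 0.148). By edgeR 3 members, FOSB, FOSL1, and ATF3, had an unadjusted p under 0.05, DESeq2 called none, and 0.0261% of all genes were called. ATF3 was called with untreated and Fc libraries pooled (adjusted p = 0.0393), beside 0.691% of all genes.

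The combination of EGFhigh and EpEX called ATF3 only against the same Fc libraries (-1.69 ± 0.41, adjusted p = 0.0105), where 4.52% of all genes were called. By edgeR 4 members, FOS, FOSB, FOSL1, and ATF3, had an unadjusted p under 0.05, as did 2942 of all genes. FOS averaged 39.8 CPM against 96.1 CPM with Fc, and FOSB 31.0 CPM against 57.4 CPM, both with overlap. ATF3 was at 53.9, 9.84, 33.7, and 18.7 CPM, overlapping the lowest Fc library, and lost its call without Fc replicate 4 (0.0800) and in the fit of only the groups compared (0.069). FOSL1 varied most here, at 347, 113, 19.3, and 67.7 CPM, from the highest to almost the lowest value of the gene in Kyse30, and did not pass. It was called without replicate 3 of the combination (1.72, adjusted p = 0.0408), with untreated and Fc libraries pooled as control (1.45, adjusted p = 0.0265), and without the filter on low counts (1.33, adjusted p = 1.75e-05). Between the combination and EGFhigh alone, no member and 0% of all genes were called by edgeR or DESeq2 (577 genes and no member at an unadjusted p under 0.05). The same held between the controls Fc and untreated (0%, with 435 genes and no member at an unadjusted p under 0.05).

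At 72 h EGFhigh set Kyse30 cells apart in FOS, FOSB, and ATF3, the same members that had risen most in untreated cells, which provide the control of both comparisons. FOS was at 46.4, 91.3, and 94.8 CPM with EGFhigh against 575, 298, and 596 CPM untreated. FOSB was at 146, 71.0, and 68.9 CPM against 599.6, 681, and 413 CPM. ATF3 was at 102, 196, and 215 CPM against 540.4, 519, and 391 CPM. No EGFhigh library reached the lowest control in these genes, and in 22.9% of all genes the groups did not overlap.

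FOS fell 6.33-fold (log2FC -2.66 ± 0.65, adjusted p = 0.00716), FOSB 5.92-fold (-2.57 ± 0.43, adjusted p = 0.000106), and ATF3 2.83-fold (-1.5 ± 0.43, adjusted p = 0.0269). Of all genes 6.2% were called. Summed over the 8 members, the level with EGFhigh was 1538 ± 353 CPM (SD, n = 3).

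JUNB was at 57.6, 224, and 335 CPM, with the highest library inside the control range (-0.88 ± 0.40, adjusted p = 0.205). JUND was at 561, 596, and 629 CPM, just above the control without passing (0.22 ± 0.24, adjusted p = 0.679). FOSL1 was at 132, 34.1, and 55.7 CPM against 46.3, 35.7, and 18.6 CPM and overlapped (1.13 ± 0.57, adjusted p = 0.262). The groups thus overlapped in JUNB and FOSL1 but not in JUND. An edgeR fit with no filter on low counts called FOSL1 (1.15, adjusted p = 0.000577) and JUNB (-0.87, adjusted p = 0.00698), beside 4.03% of all genes. Without EGFhigh replicate 1, the library with the lowest FOS, JUN, JUNB, and ATF3 of its group, FOSB remained the only call (FOS adjusted p = 0.0515, ATF3 0.154). ATF3 was also lost without EGFhigh replicate 3 (0.056) or untreated replicates 1 or 2 (0.0824 and 0.0861).

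With EGFlow these 3 genes overlapped the control. FOS was at 242, 571, 738, and 345 CPM with EGFlow at 72 h, FOSB at 717, 583, 426, and 268 CPM, and ATF3 at 525, 536, 434, and 424 CPM. FOS and FOSB each had libraries above and below the untreated range, and those of ATF3 lay within it. No member and 0% of all genes were called by edgeR or DESeq2 (439 genes and no member at an unadjusted p under 0.05). Tested directly, EGFhigh lay below EGFlow in FOS (-2.61 ± 0.62, adjusted p = 0.0089), FOSB (-2.39 ± 0.41, adjusted p = 0.000233), and ATF3 (-1.49 ± 0.41, adjusted p = 0.0296), with 3.73% of all genes called. FOSB alone kept this call without EGFhigh replicate 1 (FOS 0.0647, ATF3 0.168), and ATF3 also lost it without EGFhigh replicate 3 or EGFlow replicates 1 or 2 (0.0531 to 0.085). An edgeR fit with no filter on low counts called FOSL1 as well, which was higher with EGFhigh (1.17, adjusted p = 0.000106), beside 2.82% of all genes.

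When EpEX was added to EGFhigh for 72 h, FOS, FOSB, and ATF3 were higher than with EGFhigh alone. FOS was at 482, 516, and 369 CPM in the combination, FOSB at 586, 699, and 423 CPM, and ATF3 at 504, 678, and 370.0 CPM, each above all EGFhigh libraries, where 19.9% of all genes did not overlap. FOS was 5.88-fold (2.56 ± 0.64, adjusted p = 0.0147), FOSB 5.97-fold (2.58 ± 0.43, adjusted p = 0.000231), and ATF3 3.03-fold higher (1.60 ± 0.43, adjusted p = 0.0263) than with EGFhigh alone, with 3.58% of all genes called. JUNB at 403, 438, and 511 CPM was also above, and JUND at 502, 327, and 546 CPM below, all EGFhigh libraries without being called (1.13 ± 0.40, adjusted p = 0.111, and -0.38 ± 0.24, adjusted p = 0.459). An edgeR fit with no filter on low counts called JUNB (1.12, adjusted p = 0.000161) and FOSL1, which was lower (-1.22, adjusted p = 0.000322), beside 2.86% of all genes.

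The EGFhigh libraries are those of the comparison with untreated cells, so the gains and the losses are not independent. Without EGFhigh replicate 1 FOSB was again the only call (FOS 0.0941, ATF3 0.161), and the same held without replicate 2 of the combination (0.0597 and 0.172). ATF3 was lost as well without replicate 1 of the combination or EGFhigh replicate 3 (0.056 and 0.053), and JUNB was called without EGFhigh replicate 4 (1.68, adjusted p = 0.0282). Against Fc, the combination differed in no member and in 0% of all genes by edgeR or DESeq2 (601 genes and no member at an unadjusted p under 0.05). EpEX alone against Fc gave 0% by edgeR and 2 genes by DESeq2, neither of them a member (554 genes and no member at an unadjusted p under 0.05), and Fc against untreated cells 0% by both (439 genes and no member).

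EGFhigh responses at 72 h and 6 h were compared as an interaction in the same fit. No member passed by edgeR or DESeq2 or had an unadjusted p under 0.05, while 1.01% of all genes were called. The difference of the log2FC was -0.79 ± 0.85 for FOS, -0.79 ± 0.58 for FOSB, and 0.29 ± 0.59 for ATF3. The group mean with EGFhigh lay below that of untreated cells in these 3 genes at both 6 and 72 h. The order of levels over the 13 groups separated at 1 place only. For FOS, FOSB, and ATF3 the 5 highest groups were those at 72 h other than EGFhigh, the fifth and sixth groups did not overlap, and all other neighbours did. For FOS this gap lay between the combination at 72 h and untreated cells at 0 h. For FOSB and ATF3 it lay between EGFlow and EGFhigh at 72 h. For the remaining 5 genes every neighbouring pair of groups overlapped. How many of all genes have such a gap was not counted, so it is not shown to be particular to these genes.

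**Figure D2:**
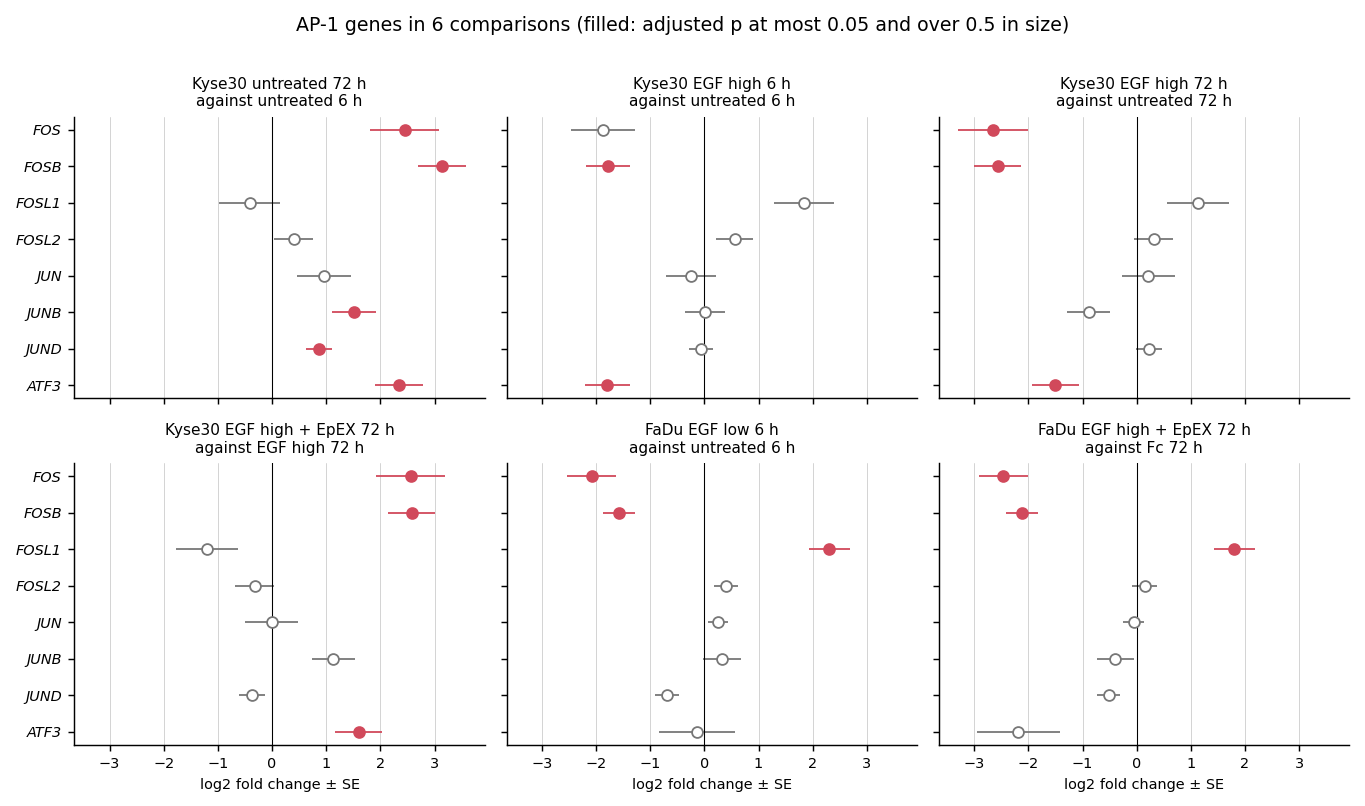
Log2FC (points) with SE (lines) of the 8 AP-1 genes in 6 comparisons, 4 in Kyse30 and 2 in FaDu, with called members (adjusted p at most 0.05 and absolute log2FC over 0.5) filled. FOS, FOSB, and ATF3 lie below 0 with EGFhigh at both times in Kyse30 and above 0 in the other 2 Kyse30 comparisons, and FOSL1 lies at 2.31 (EGFlow, 6 h) and 1.81 (combination, 72 h) in FaDu.

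FaDu cells shifted within the Fos family at 6 h. FOSL1 rose with EGFlow, EGFhigh, and EpEX, and FOS and FOSB fell with EGFlow.

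FOSL1 was at 60.9 and 108 CPM in untreated cells, at 352 and 485 CPM with EGFlow, and at 347 and 478 CPM with EGFhigh. With Fc it was at 60.9 and 97.8 CPM, and with EpEX at 318 and 555 CPM. Both libraries of each treated group were above both of its control, but with a pair of libraries per group 42.8% (EGFlow), 40.8% (EGFhigh), and 39.8% (EpEX) of all genes did not overlap. It rose 4.95-fold with EGFlow (2.31 ± 0.38, adjusted p = 0.0013), 4.87-fold with EGFhigh (2.29 ± 0.38, adjusted p = 0.00165), and 5.49-fold with EpEX (2.46 ± 0.38, adjusted p = 0.000740).

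FOS was at 57.7 and 59.8 CPM untreated and at 10.4 and 17.3 CPM with EGFlow (-2.08 ± 0.45, adjusted p = 0.0129). FOSB was at 34.6 and 45.4 CPM untreated and at 13.5 and 13.3 CPM with EGFlow (-1.58 ± 0.30, adjusted p = 0.00505). Both were also lower without overlap with EGFhigh, at 20.5 and 44.0 CPM for FOS and 23.4 and 20.8 CPM for FOSB, but neither passed there. With EpEX FOS was at 15.2 and 49.0 CPM against 81.1 and 59.9 CPM with Fc (-1.12 ± 0.43, adjusted p = 0.212), and FOSB at 25.2 and 27.2 CPM against 34.8 and 27.5 CPM (-0.25 ± 0.29, adjusted p = 0.793). ATF3, at 8.005 and 35.4 CPM untreated and 11.52 and 28.0 CPM with EGFlow, overlapped in each of these comparisons.

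Called members numbered 3 with EGFlow, 1 with EGFhigh, and 1 with EpEX, where 3.45%, 3.06%, and 3.5% of all 16022 genes tested were called. With a pair of libraries in each group, leaving out 1 often ended a call. Without untreated replicate 3, FOSL1 lost it in both EGF comparisons (adjusted p 0.0545 and 0.0681) and FOS with EGFlow (0.0733). FOS was also lost without untreated replicate 4 or EGFlow replicate 3 (0.0634 and 0.117), and FOSB without untreated replicate 4 or EGFlow replicate 4 (0.0619 and 0.0598). The FOSL1 call with EpEX was kept in every omission, and without EpEX replicate 4 FOS was called as well (-2.21, adjusted p = 0.0155). FOSL1 was higher in replicate 4 than in replicate 3 in all 7 groups with both, by 1.38 to 2.32 times, and ATF3 by 1.38 to 4.42 times. With EGFlow, EGFhigh, and EpEX at 6 h FOSL1 was also higher in the treated library within replicate 3 and within replicate 4. That follows from the lack of overlap given above and adds nothing to it.

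Replicates 1 and 2 did not show the FOSL1 pattern. On a scale set over all 41 FaDu libraries, FOSL1 was at 83.3 and 5.14 CPM in their untreated libraries at 6 h, 2.61 CPM with EGFlow, and 13.5 and 1.66 CPM with EGFhigh. With Fc it was at 5.36 and 81.8 CPM and with EpEX at 2.67 CPM. The treated libraries of this set were thus below the lower control except for 1 with EGFhigh. Fitted with all 41 libraries, the log2FC of FOSL1 was 2.14 ± 1.59 with EGFlow, 1.70 ± 1.5 with EGFhigh, and 2.26 ± 1.60 with EpEX. FOS with EGFlow then had -1.72 ± 1.16 and FOSB -1.15 ± 1.10, and no member was called in any FaDu comparison. The same held for all genes, of which 0% of 18533 were called in each of the 7 FaDu comparisons with all 41 libraries.

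Neither FaDu dose comparison nor control comparison called a gene. EGFhigh and EGFlow differed in 0% of genes by edgeR and DESeq2 (393 at an unadjusted p under 0.05, among them FOS and FOSB, which were higher with EGFhigh without overlap, as 24.2% of all genes did not overlap), and Fc and untreated cells likewise in 0% (275 genes and no member). In the single library of the combination at 6 h FOSL1 was at 134 CPM, between the controls and the single treatments.

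At 72 h the combination with EGFhigh and EpEX was the only FaDu treatment with replicate libraries. FOS was at 23.5 and 11.9 CPM against 84.2 and 110.2 CPM with Fc (-2.47 ± 0.45, adjusted p = 0.0123). FOSB was at 26.9 and 13.7 CPM against 65.9 and 109 CPM (-2.11 ± 0.30, adjusted p = 0.00243). FOSL1 was at 145 and 219 CPM against 31.3 and 72.8 CPM, 3.49-fold higher (adjusted p = 0.0256, and 0.0514 with the filter at a mean of 5 CPM). The groups did not overlap in these 3 genes or in JUNB, JUND, and ATF3, nor did they in 41.1% of all genes, and 0.818% of all genes were called (0.0565% without replicate 4 of the combination). ATF3 at 3.86 and 5.33 CPM lay below the 8.29 and 33.8 CPM of Fc without being called (-2.19 ± 0.77, adjusted p = 0.379), but was called without the filter on low counts (9.59e-08). No member was called without replicate 4 of the combination (0.293, 0.058, and 0.346 for FOS, FOSB, and FOSL1), FOS was lost without Fc replicate 4 (0.110), and FOSL1 without Fc replicate 3 (0.409). With all 41 libraries the log2FC was -2.26 ± 1.23 for FOS, -2.03 ± 1.19 for FOSB, and 0.46 ± 1.70 for FOSL1, none of them called.

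Of the other 72 h conditions FaDu had 1 library each, given as levels. FOS was at 126 CPM untreated, 28.3 CPM with EpEX, 20.9 CPM with EGFlow, and 5.63 CPM with EGFhigh. FOSB was in the same order at 102, 26.1, 13.6, and 3.33 CPM. FOSL1 was in the reverse order at 46.0, 64.2, 123, and 211 CPM. The EGFlow library was replicate 3 and the other 3 were replicate 4, in which FOSL1 was higher elsewhere, so the place of EGFlow in this order cannot be told apart from the replicate. Between 6 and 72 h of Fc, FOSB rose 2.81-fold (1.49 ± 0.29, adjusted p = 0.00616) as the only member, with 2.88% of all genes called, and lost the call without Fc 6 h replicate 4 or Fc 72 h replicate 4 (0.0810 and 0.174). JUND, at 86.4 and 100.3 CPM and then 182 and 137 CPM, did not pass in edgeR (0.77 ± 0.22, adjusted p = 0.0656) but was called by DESeq2 (0.0197), with the filter at a mean of 5 CPM (0.0486), and without a filter (0.0121).

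**Figure D3:**
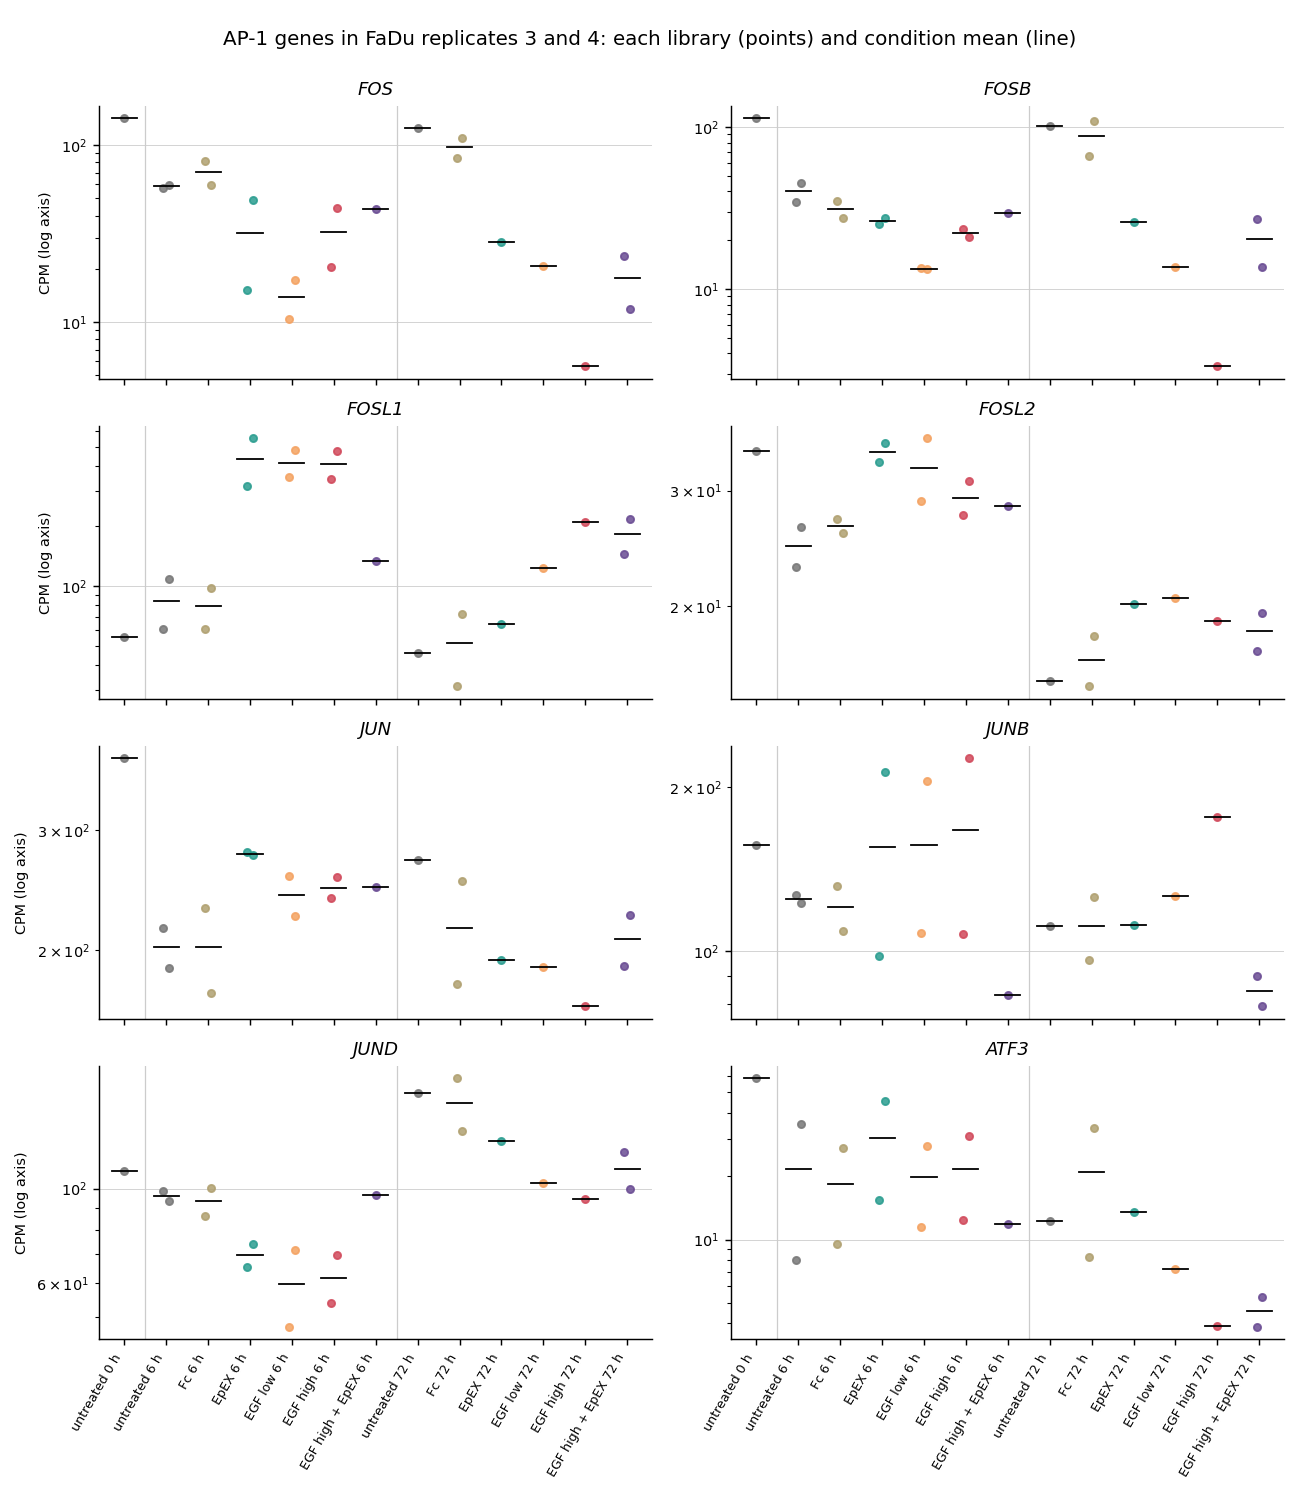
Level in CPM (log axis) of each of the 8 AP-1 genes in the 20 FaDu libraries of replicates 3 and 4, by treatment and time, with a point per library and a line at each group mean. FOSL1 at 6 h lies between 318 and 555 CPM with EGFlow, EGFhigh, and EpEX and between 60.9 and 108 CPM in the controls.

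Whether the cell lines differed was tested in 1 fit of 63 libraries. No member's response at 6 h passed this test by edgeR or DESeq2, with 0.112% (EGFlow), 0.0611% (EGFhigh), and 0.127% (EpEX) of 19634 genes called. ATF3 came closest and was the single member with an unadjusted p under 0.05 in each, with a response in Kyse30 minus that in FaDu of -1.90 ± 0.78, -1.77 ± 0.78, and -2.34 ± 0.80 on the log2 scale (adjusted p = 0.798, 1.0, and 0.538). An edgeR fit with no filter on low counts did call ATF3 in each (adjusted p = 0.000224, 0.00145, and 1.53e-06), beside 0.284, 0.226, and 0.313% of all genes. The log2FC in that fit was nearly unchanged (-1.91, -1.77, and -2.33), and no other alternative run for this test called ATF3. A difference of ATF3 between the lines thus rests on this fit alone. FOSL1 was called with EGF at 6 h in FaDu and, in Kyse30, only under some of the fits, and a difference between the lines is not shown (-0.55 ± 0.81 for EGFlow and -0.42 ± 0.81 for EGFhigh).

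The balance within the Fos family was followed as the share of each gene in the summed FOS, FOSB, FOSL1, and FOSL2 CPM. In untreated Kyse30 at 6 h FOSL1 made up 19.2 ± 0.80% (SD, n = 3) and FOS with FOSB 65.5 ± 2.5%. With Fc, the control of EpEX and the combination, FOSL1 made up 22.5 ± 5.6% (n = 3). With EGFhigh FOSL1 held 63.8 ± 6.4% (n = 4), with EGFlow 58.1 ± 19.5% (n = 4), with EpEX 60.9 ± 15.02% (n = 3), and with the combination 46.5 ± 27.9% (n = 4). All libraries with EGFlow, EGFhigh, and EpEX were above every untreated and Fc library at 6 h, while the combination ranged from 9.92% to 76.1% and overlapped it.

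After 72 h without treatment FOSL1 held 2.92 ± 1.02% (n = 3) and FOS with FOSB 93.1 ± 1.9%. EGFhigh left FOSL1 at 23.2 ± 12.7% (n = 3), EGFlow at 3.31 ± 1.26% (n = 4), and the combination at 2.91 ± 0.94% (n = 3). With Fc it was at 2.69 ± 0.77% (n = 3). In FaDu at 6 h FOSL1 held 39.9 ± 7.5% untreated and 38.1 ± 11.6% with Fc (n = 2 each). It held 87.4 ± 0.68% with EGFlow, 83.1 ± 0.26% with EGFhigh, and 82.2 ± 1.4% with EpEX (n = 2 each). At 72 h it held 19.7 ± 5.3% with Fc and 75.6 ± 10.3% with the combination (n = 2 each). Shares move together by construction and repeat the levels above, so they were not tested.

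**Figure D4:**
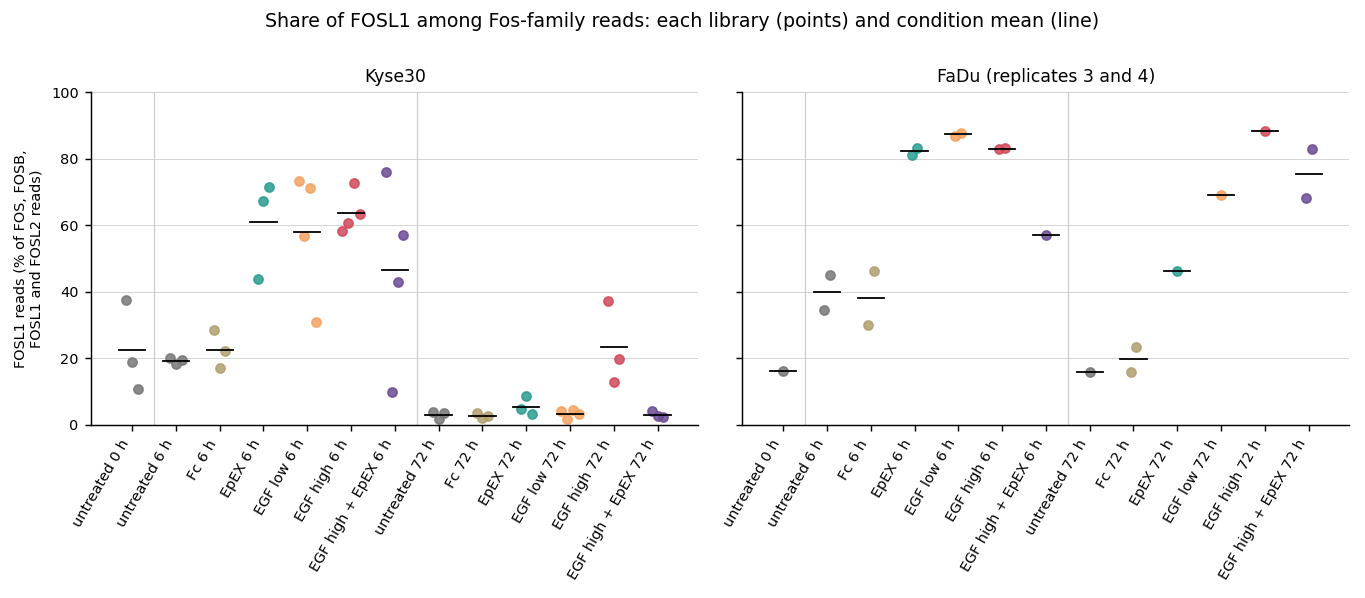
Share of FOSL1 in the summed CPM of FOS, FOSB, FOSL1, and FOSL2 (percent), by treatment and time, with a point per library and a line at the group mean for Kyse30 (43 libraries) and FaDu (replicates 3 and 4, 20 libraries). In Kyse30 the mean share was 63.8% with EGFhigh at 6 h and 2.92% in untreated cells at 72 h.

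FOSL2 and JUN were called in no comparison of either line in the fits per line, and JUN between untreated 72 and 6 h in the 2 other Kyse30 fits named above. FOSL2, which encodes Fra-2, ranged from 12.5 to 94.5 CPM over the Kyse30 libraries, with group means 2.72 times apart at most. JUN, the main partner of the Fos proteins, ranged from 47.1 to 528 CPM there and was highest on average with EpEX at 72 h (342 ± 174 CPM, n = 3). Its 3 libraries were at 184, 313, and 528 CPM. In the 20 FaDu libraries JUN lay between 165 and 383 CPM and JUND between 47.4 and 182 CPM. JUND was lower than in the controls without overlap in FaDu cells treated for 6 h with EGFlow, EGFhigh, or EpEX (log2FC -0.69 ± 0.22, -0.64 ± 0.22, and -0.42 ± 0.22), and none of these passed in the fit of all FaDu groups. Such separation was found in 39.8 to 42.8% of all genes there. With EGFlow JUND was called when untreated and Fc libraries were pooled (adjusted p = 0.0348) and without the filter on low counts (0.0359).

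Other immediate-early genes moved with FOS and FOSB only in part. Of 14 genes, 2 were called in Kyse30 with EGFlow at 6 h, where 1.5% of all genes were, and the median log2FC of the 14 was -0.17 against -0.04 over all genes. TRIB1, a pseudokinase, rose (1.20 ± 0.30, adjusted p = 0.0275) and EGR1, a zinc finger factor, fell (-1.20 ± 0.31, adjusted p = 0.0383). The same genes were called with EGFhigh (1.44 ± 0.30 and -1.19 ± 0.31), beside 2.55% of all genes. With the combination at 6 h TRIB1 rose (1.20 ± 0.30) and EGR2, a relative of EGR1, fell (-3.36 ± 0.87), beside 4.52%. At 72 h with EGFhigh, where 6.2% of all genes were called, 3 of the 14 were. CCN1 (-2.31 ± 0.71) and DUSP1 (-1.51 ± 0.47), a phosphatase that switches MAP kinases off, fell and IER3 rose (1.92 ± 0.44). When EpEX was added, 4 of the 14 were called, beside 3.58% of all genes. DUSP1 (1.63 ± 0.47), EGR1 (1.22 ± 0.34), and EGR2 (2.82 ± 0.84) were higher and IER3 lower (-1.77 ± 0.44). DUSP1 was also the 1 gene of this list called between untreated 72 and 6 h (2.95 ± 0.50, adjusted p = 0.000617), beside 1.55% of all genes.

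In FaDu at 6 h 2 of the 14 genes were called with EGFlow, 1 with EGFhigh, and 3 with EpEX, all higher, where 3.45%, 3.06%, and 3.5% of all genes were called. IER3 rose with EGFlow (1.47 ± 0.25), EGFhigh (1.44 ± 0.25), and EpEX (1.67 ± 0.25), KLF10 with EGFlow (1.37 ± 0.32) and EpEX (1.29 ± 0.32), and KLF6 with EpEX (1.5 ± 0.35). The median log2FC of the 14 genes was 0.53, 0.74, and 0.99 in these comparisons, against -0.02, -0.01, and -0.01 over all genes.

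Among 15 other bZIP genes, of which 13 were tested in each line, JDP2 and MAFK were called in Kyse30, 1 gene per comparison. JDP2, which encodes a repressor that dimerizes with Jun proteins, rose in untreated cells from 6 to 72 h (1.92 ± 0.50, adjusted p = 0.0344) and fell with EGFhigh at 72 h (-1.96 ± 0.50, adjusted p = 0.0114), and was lower with EGFhigh than with EGFlow (-1.84 ± 0.48, adjusted p = 0.0186). The shares of all genes called there were 1.55%, 6.2%, and 3.73%. MAFK, a small Maf gene, rose with the combination at 6 h (0.87 ± 0.26, adjusted p = 0.0441), beside 4.52% of all genes. In FaDu 2 of the 13 were called with each of EGFlow, EGFhigh, and EpEX at 6 h, beside 3.45%, 3.06%, and 3.5% of all genes. The small Maf gene MAFF, whose protein lacks a transactivation domain, rose with EGFlow (2.28 ± 0.29), EGFhigh (2.01 ± 0.28), and EpEX (2.60 ± 0.29) at 6 h. BACH1, a repressor of oxidative stress genes, rose with EGFlow (2.0 ± 0.50), MAFK with EGFhigh (0.93 ± 0.22), and NFE2L2, the master regulator of the oxidative stress response, with EpEX (0.88 ± 0.18). ATF4, the effector of the integrated stress response, fell between 6 and 72 h of Fc (-1.34 ± 0.21, adjusted p = 0.000985), beside 2.88% of all genes.

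Of 18 kinases and transcription factors that act upstream of AP-1, all tested, 3 rose and 2 fell in Kyse30 with EGFhigh at 72 h, where 6.2% of all genes were called, with a median log2FC of -0.05 against -0.03 over all genes. EGFR itself fell (-1.03 ± 0.18, adjusted p = 0.000234), as did SRF, the serum response factor that drives FOS (-1.20 ± 0.28, adjusted p = 0.00483). The kinase genes RPS6KA1 (1.26 ± 0.27) and MAP2K2 (0.86 ± 0.23) rose. With EpEX added to EGFhigh, 4 of the 18 were called, beside 3.58% of all genes, and EGFR (0.80 ± 0.18) and SRF (1.23 ± 0.28) were higher and RPS6KA1 (-1.21 ± 0.27) and MAP2K2 (-0.88 ± 0.23) lower, on the same EGFhigh libraries. EGFR rose in untreated cells from 6 to 72 h (1.37 ± 0.19, adjusted p = 2.01e-05), as the single call of the list beside 1.55% of all genes.

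At 6 h RPS6KA3, which encodes the ribosomal S6 kinase RSK2, rose in Kyse30 with EGFlow (1.14 ± 0.30) and EGFhigh (1.32 ± 0.30) as the 1 gene of the 18 called, beside 1.5% and 2.55% of all genes. In FaDu 4 of the 18 were called with EGFlow, 3 with EGFhigh, and 4 with EpEX, beside 3.45%, 3.06%, and 3.5%. RPS6KA3 also rose in FaDu with EGFlow (0.92 ± 0.19), EGFhigh (0.83 ± 0.19), and EpEX (0.84 ± 0.19). ELK3, an ETS partner of SRF, rose in FaDu in the same comparisons (1.94 ± 0.21, 1.93 ± 0.21, and 1.62 ± 0.21) and with the combination at 72 h (1.12 ± 0.21, adjusted p = 0.0123), where it was the single call of the list beside 0.818% of all genes. SRF rose in FaDu at 6 h with EGFlow (1.01 ± 0.22), EGFhigh (0.89 ± 0.22), and EpEX (0.94 ± 0.22), the opposite direction to that in Kyse30 with EGFhigh at 72 h. In Kyse30 at 6 h SRF had a log2FC of 0.61 ± 0.26 with EGFhigh without passing (adjusted p = 0.232). Within Kyse30 the EGFhigh response of SRF at 72 h minus that at 6 h was -1.80 ± 0.38 (adjusted p = 0.00745), and at 6 h the response in Kyse30 minus that in FaDu was -0.25 ± 0.40 (adjusted p = 1.0).

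Of 18 textbook targets of AP-1, 15 were tested in Kyse30. With EGFhigh at 72 h 6 of them rose, none fell, and 9 did not pass, where 6.2% of all genes were called, with a median log2FC of 0.95 against -0.03 over all genes. SPRR1B, a cornified envelope precursor of squamous differentiation, rose by 5.81 ± 0.50 (adjusted p = 1.6e-10), MMP1, the interstitial collagenase, by 3.62 ± 0.94 (adjusted p = 0.013), the hyaluronan receptor gene CD44 by 2.11 ± 0.26 (adjusted p = 7.17e-07), and LAMA3, a laminin chain gene of the basement membrane, by 1.67 ± 0.37 (adjusted p = 0.00311). With EpEX added, 4 of the 15 were called, beside 3.58% of all genes, and SPRR1B (-3.86 ± 0.45), LAMA3 (-1.52 ± 0.37), HMGA1 (-1.46 ± 0.22), and CD44 (-1.40 ± 0.25) were lower than with EGFhigh alone. SPRR1B (-1.84 ± 0.44), HMGA1 (-1.03 ± 0.22), and CD44 (-0.93 ± 0.25) fell in untreated cells from 6 to 72 h, beside 1.55% of all genes.

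In Kyse30 at 6 h 1 of the 15 targets was called with EGFlow, 1 with EGFhigh, and 2 with the combination, where 1.5%, 2.55%, and 4.52% of all genes were called. SPRR1B rose in Kyse30 with EGFlow (1.56 ± 0.40) and HBEGF, which encodes an EGFR ligand, with EGFhigh (2.43 ± 0.65) and with the combination (2.15 ± 0.65), as did the cyclin gene CCND1 with the combination (0.78 ± 0.21). The median log2FC of the targets in Kyse30 was 0.42 with EGFlow, 0.67 with EGFhigh, and 0.70 with EpEX, which called none. In FaDu 17 targets were tested, of which 3 were called with EGFlow, 3 with EGFhigh, and 1 with EpEX at 6 h and 1 with the combination at 72 h, where 3.45%, 3.06%, 3.5%, and 0.818% of all genes were called. HBEGF rose there with EGFlow (3.47 ± 0.41), EGFhigh (3.16 ± 0.41), and EpEX (3.74 ± 0.42), and PLAUR, the urokinase receptor gene, with EGFlow (3.70 ± 0.77) and EGFhigh (3.50 ± 0.76), as did CD44 (1.41 ± 0.32 and 1.53 ± 0.32). At 72 h HMGA1 rose with the combination (1.51 ± 0.19, adjusted p = 0.000935). SPRR1B belongs to a family of near-identical copies, and its counts may be split among them.

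**Figure D5:**
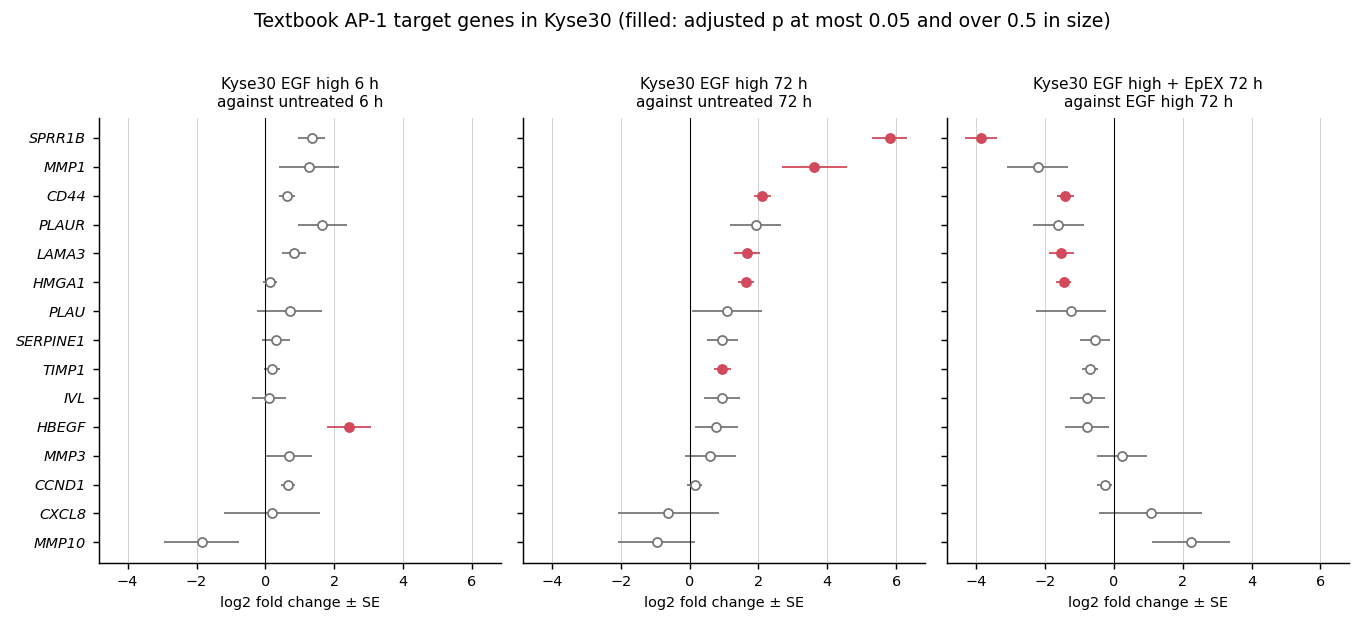
Log2FC (points) with SE (lines) of the 15 textbook AP-1 target genes tested in Kyse30 for EGFhigh against untreated at 6 and 72 h and for EGFhigh + EpEX against EGFhigh at 72 h, with called genes filled. SPRR1B lies at 5.81 with EGFhigh at 72 h and at -3.86 when EpEX was added, and these 2 panels share the EGFhigh libraries.

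Epithelial markers moved in the same comparisons. Of 8 squamous markers and 2 simple keratins, 1 was called in Kyse30 with EGFlow, 2 with EGFhigh, and 3 with the combination at 6 h, and 5 with EGFhigh at 72 h, beside 1.5%, 2.55%, 4.52%, and 6.2% of all genes. In FaDu 5 were called with EGFlow, 4 with EGFhigh, and 4 with EpEX at 6 h and 2 with the combination at 72 h, beside 3.45%, 3.06%, 3.5%, and 0.818%. KRT6A rose in Kyse30 at 6 h with EGFlow (3.38 ± 0.67) and EGFhigh (3.11 ± 0.66). KRT8 (1.55 ± 0.29), KRT18 (1.52 ± 0.26), SFN (1.67 ± 0.35), KRT17 (2.22 ± 0.54), and KRT6A (4.66 ± 0.73) rose with EGFhigh at 72 h, the keratins KRT17 and KRT6A with the same limit of near-identical copies. In FaDu at 6 h KRT17 rose with EGFlow (2.15 ± 0.21), EGFhigh (2.09 ± 0.21), and EpEX (2.42 ± 0.21), and fell with the combination at 72 h (-1.05 ± 0.21), as did KRT5 (-2.14 ± 0.31, adjusted p = 0.00256). In Kyse30 KRT6A (-2.39 ± 0.65), KRT8 (-1.45 ± 0.29), SFN (-1.41 ± 0.35), and KRT18 (-1.28 ± 0.26) were lower with the combination than with EGFhigh at 72 h, the comparison in which FOS, FOSB, and ATF3 were higher. Their part in the AP-1 results was not tested.

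The genes most like each member were those with the highest Pearson correlation over the 13 Kyse30 condition means of log2 CPM, among 10242 genes. These means share control groups and a common 6 to 72 h shift, and the values are descriptions. FOS was closest to ZNF362 (r = 0.988), FOSB (0.988), and NEDD9 (0.986), and FOSB to DUSP1 (0.988), FOS, and AHI1 (0.987). ATF3 was closest to NR4A2 (0.991), an orphan nuclear receptor gene of the immediate-early class, GADD45B (0.989), a stress gene, and RNF152 (0.987). JUN was closest to ZFP36 (0.976), which encodes a protein that destabilizes AU-rich mRNAs, C3 (0.975), and NOP53 (0.973).

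FOSL1 followed other genes, among them NIFK (0.955) and PROSER2 (0.953), and ran against FOS (r = -0.893). JUNB was closest to DUSP9 (0.969), ID1 (0.968), and PTPN3 (0.964), and JUND to TMEM38A (0.979), CERCAM (0.975), and SEZ6L2 (0.973). FOSL2 had lower values with BCORL1 (0.922), TCIRG1 (0.893), and SYTL4 (0.877). Over the 43 single libraries or by Spearman's rho, at most 1 of the 3 genes was the same for each member, so that the names beyond the members depend on the measure. Within the family, r over the means was 0.981 for FOS with ATF3 and for FOSB with ATF3, and 0.919 for JUN with JUNB.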

How the data were processed

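For each of 84 libraries (QuantSeq 3′ mRNA-Seq FWD, total RNA) the authors deposited whole-number counts of reads per gene. Per the labels STAR, HTSeq, and GRCh38 were used, with versions, annotation, and strand setting not given in the sources used here. The counts were not normalized by the authors and replicates were not pooled, and the 5 tally rows of each file, which name no gene, were omitted. Reads assigned to no feature made up 5.30 to 15.3% of Kyse30 libraries, relative to the total of all tallies and genes.

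Genes passing filterByExpr by group (minimum count 10, minimum total 15) were tested with edgeR 4.0.16 in R 4.3.3 (TMM, quasi-likelihood F test), in 1 fit for Kyse30, 1 for FaDu replicates 3 and 4, and 1 for both (interactions). P-values were adjusted by Benjamini-Hochberg over all genes, and SE is the absolute log2FC divided by the square root of F. Log2 CPM has a prior count of 2, and CPM was normalized separately for each line. Symbols from the gene name table matched 57754 of the 58395 genes. Members and lists were chosen with earlier results of these data known. All members were named, and from each list at most 4 called genes per comparison with the largest absolute log2FC, except the markers, all of which could be named. For each member the 3 most similar genes were taken, of which 1 is not reported here. Scripts were tested on simulated data. The alternatives were DESeq2 1.42.0, RLE size factors, no filter, a filter at mean 5 CPM, fits restricted to the compared groups, a replicate block, pooling of Fc and untreated libraries, omission of each library, and all 41 FaDu libraries.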

Additional observations from a re-analysis of the deposited data

Results flagged for a closer look

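ATF3 in Kyse30 with EGFhigh at 6 h had 1 library, replicate 1, at 52.0 CPM, while the others were at 16.3, 21.9, and 22.0 CPM. The gap made up more of the group's range than the 95% critical value of Dixon's test allows for 4 libraries. Of 32 pairs of a member and a group of 4 libraries 1 was marked in this way, where chance marks about 1 in 20.

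For 5 genes of the lists the EGFhigh response of Kyse30 differed between 72 and 6 h in the interaction test of edgeR (Benjamini-Hochberg over all genes). The log2FC at 72 h minus that at 6 h was -1.47 for EGFR (adjusted p = 0.00106), -1.80 for SRF (adjusted p = 0.00745), 1.498 for HMGA1 (adjusted p = 0.00393), 4.46 for SPRR1B (adjusted p = 3.02e-05), and 1.49 for CD44 (adjusted p = 0.015). No AP-1 gene differed in this test.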

How the results depend on the processing

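Of 216 tests of a member in a comparison 27 were calls, and none reversed under any alternative. DESeq2 and RLE size factors lost none, the mean of at least 5 CPM lost FOSL1 in FaDu with the combination at 72 h (adjusted p = 0.0514), the fit of only the groups compared lost ATF3 in Kyse30 with the combination at 6 h (0.069), and omission of single libraries lost 20. The causes were not tested.

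Without the filter on low counts more members were called. In Kyse30 there were 4 with EGFlow, 4 with EGFhigh, 3 with EpEX, and 4 with the combination at 6 h (1.44, 2.1, 0.38, and 3.41% of all genes), and at 72 h 5 with EGFhigh and 5 between the combination and EGFhigh (4.03 and 2.86%). FOSL1 was also gained between EGFhigh and EGFlow at 72 h (2.82%). In FaDu there were 3 with EGFhigh, 2 with EpEX, 1 between the doses, and 2 between Fc at 72 and 6 h, where 2.63, 2.87, 0.00366, and 2.94% of all genes were called, and each interaction of the lines had 1 (0.226 to 0.313%). With untreated and Fc libraries pooled, Kyse30 at 6 h had 4 (EGFlow), 4 (EGFhigh), 1 (EpEX), and 2 (combination), beside 5.06, 7.2, 0.691, and 6.79% of all genes, and with only the groups compared 4 (EGFlow), 4 (EGFhigh), and 0 (combination), beside 2.83, 4.68, and 1.66%. DESeq2 and the mean of at least 5 CPM called 2 between Fc at 72 and 6 h in FaDu (2.56 and 4.96% of all genes). With all 41 FaDu libraries the count was 0 in each comparison, EGFlow, EGFhigh, and EpEX at 6 h, the combination at 72 h, and Fc at 72 against 6 h, as was that of all 18533 genes.

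Same-numbered libraries correlated in their deviations from group means at a mean r of 0.0633 in Kyse30 (-0.131 to 0.289) and 0.0713 in FaDu, against -0.0216 and -0.0713 for different numbers. In FaDu each group used here held a pair of libraries, whose deviations mirror each other. The FaDu value for different numbers is thus the negative of the other by construction, and the libraries of a group count alike. Although 38 of 43 Kyse30 and 14 of 14 FaDu libraries correlated best with their own number, not every pair exceeded 0.1, and the numbers were not taken as pairs. With the number as a replicate block none of the 27 calls was lost, those of FOSL1 in FaDu included, and 6 were gained. Then 2 members were called with EGFlow (FOSL1 gained, adjusted p = 0.0104) and 4 with EGFhigh (FOSL1 0.00435, FOS 0.0433) at 6 h in Kyse30, beside 2.72 and 4.14% of all genes. In FaDu 3 were called between Fc at 72 and 6 h (FOSL1 0.037, JUND 0.0374), beside 4.66% of all genes, and ATF3 was gained with the combination at 72 h (0.00333), beside 1.54%.

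With 1 library left out, the called members numbered 1 to 2 (EGFlow), 0 to 3 (EGFhigh), and 0 to 2 (combination) in Kyse30 at 6 h, where 0.124 to 1.76%, 0.701 to 2.14%, and 1.37 to 5.48% of all genes were called. At 72 h they numbered 1 to 3 for EGFhigh against untreated, 1 to 3 against EGFlow, 1 to 4 for the combination against EGFhigh, and 2 to 3 for untreated cells at 72 against 6 h (2.94 to 4.83%, 1.91 to 3.48%, 1.15 to 2.95%, and 0.447 to 0.962% of all genes). In FaDu they numbered 1 to 2 (EGFlow), 0 to 1 (EGFhigh), and 1 to 2 (EpEX) at 6 h, 0 to 3 for the combination at 72 h, and 0 to 1 for Fc at 72 against 6 h (1.21 to 2.5%, 0.936 to 2.5%, 1.58 to 2.91%, 0.0565 to 0.43%, and 0.979 to 2.01%). Elsewhere they stayed at 0. For the interactions of the lines this was not run. Where an omission left 1 library in a group, its spread was assumed to equal that of the others. The count over all genes moved by over 1.5 times in 13 of 27 comparisons with DESeq2, in 19 without the filter, in 10 with the block, in 1 with the mean of at least 5 CPM, and in none with RLE size factors, and in 14 of 16 with pooled controls, 7 of 16 with only the groups compared, and 8 of 10 with all 41 FaDu libraries. Depth set a floor (3 counts) of up to 1.542 CPM in Kyse30, counting error only.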
